A study of Mus musculus with 3 samples.

Results

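A set of 10 genes of the proximal part of mouse chromosome 17 was described in single cells of the mouse brain. All lie between 5 and 10 Mb, around the chemokine receptor gene Ccr6. They are the ribonuclease copies Rnaset2a and Rnaset2b, the GTPase-activating protein copies Tagap and Tagap1, the dynein light chain copies Dynlt1a, Dynlt1c and Dynlt1f, and the single genes Mpc1, Zdhhc14 and Sft2d1. The 10 were chosen by their UMI counts in MHC class II-deficient against wild-type (WT) microglia, so that difference is given here as a description with no test. All 10 were listed in each of the 3 count tables, among 14221 genes listed in any table and 11979 listed in all 3.

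The study compared brain myeloid cells, sorted by surface CD11b and CD45, of 1 MHC class II-deficient mouse that has almost no CD4 T cells and of 2 WT mice (WT 1 and WT 2), to ask what microglia need CD4 T cells for. Each mouse gave 1 droplet 3′ library. The labels name neither the allele of the deficient mouse nor the strain, age or sex of any mouse, and call the WT samples adult. With 1 deficient library, its genotype, the mouse, its genetic background and the library cannot be told apart. MHC class II molecules present peptides to CD4 T cells and are needed for those T cells to form.

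The deficient library had 6616662 unique molecular identifiers (UMIs, each counting 1 tagged RNA molecule) over 2278 barcodes, against 16230216 and 17293844 UMIs over 4589 and 4815 barcodes in the WT libraries. Between 13 and 30 barcodes were shared by any pair of libraries. After filtering, microglia-like cells numbered 2175 in the deficient library, 3896 in WT 1 and 4387 in WT 2, and all 10 microglial markers had UMIs in each. In these cells the median UMIs per cell was 2823 in the deficient library, against 3374.5 and 3324 in the WT libraries. Neutrophil markers differed as well: 9 of 10 had UMIs in deficient microglia-like cells, with a summed level of 49.6 CPM (UMIs of a gene scaled to 1e+06 UMIs of the summed cells) and Ly6g at 0, against 10 of 10 in each WT library, with 1208 and 634 CPM. The part of this difference in the values below was not tested. Intervals below are exact 95% intervals and cover counting error only, since UMIs of 1 library come from 1 mouse.

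Rnaset2 encodes a secreted and lysosomal ribonuclease of the T2 family, which cuts RNA taken up into lysosomes and makes fragments that lysosomal Toll-like receptors sense. The mouse carries this gene as neighbouring copies where humans have a single gene. Tagap encodes a GTPase-activating protein of activated T cells and myeloid cells, and human TAGAP has been placed downstream of fungal pattern receptors. Dynlt1 genes encode a Tctex-type light chain that joins cargo to the cytoplasmic dynein motor. Where copies are nearly identical, a short 3′ read can match more than 1 of them.

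In the GENCODE M21 annotation of the mm10 build, Rnaset2a lies on the minus strand at chr17:8115445-8148097 and Rnaset2b on the plus strand at chr17:6970634-7011299, 1.10 Mb apart. Their transcripts numbered 201 were aligned over 1793 positions, of which 1776 were identical (99.1%), with 7 mismatches and 10 gap positions. The 777 coding bases of both copies were identical, so all these differences lay outside the coding sequence. The first 120 coding bases, which span an intron in the genome (chr17:8145584-8147694 on the minus strand for Rnaset2a and chr17:6978998-6981126 on the plus strand for Rnaset2b), are shown once because both copies share every letter.
Rnaset2a and Rnaset2b: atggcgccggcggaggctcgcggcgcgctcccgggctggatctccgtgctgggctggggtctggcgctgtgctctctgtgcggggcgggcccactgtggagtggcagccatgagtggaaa

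The likeness also held in RefSeq promoter sequences. A RefSeq promoter sequence of Rnaset2a (GRCm38.p6, 1 of 2 given) and that of Rnaset2b aligned over 255 bases with 254 identical. The 205 of these bases that lie before both RefSeq starts are printed here with the 1 differing base in capitals. It is A102G from Rnaset2a to Rnaset2b, counted from the first base shown. The stretches lie at chr17:8147833-8148037 on the minus strand and chr17:6978655-6978859 on the plus strand, inside the GENCODE gene coordinates given above.
Rnaset2a: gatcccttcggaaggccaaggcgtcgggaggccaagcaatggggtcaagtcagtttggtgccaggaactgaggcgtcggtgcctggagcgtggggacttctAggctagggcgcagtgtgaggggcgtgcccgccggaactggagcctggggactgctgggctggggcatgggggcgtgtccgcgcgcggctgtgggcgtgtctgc
Rnaset2b: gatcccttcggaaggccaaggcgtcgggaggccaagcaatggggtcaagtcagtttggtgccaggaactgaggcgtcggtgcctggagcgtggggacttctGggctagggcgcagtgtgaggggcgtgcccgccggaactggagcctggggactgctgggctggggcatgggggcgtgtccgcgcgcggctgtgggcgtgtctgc

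Tagap lies on the plus strand at chr17:7926000-7934897 and Tagap1 on the minus strand at chr17:6955011-6961156, 0.965 Mb apart. Tagap1 lacks a counterpart of the first part of Tagap: the best local alignment of the transcripts began at base 905 of the 3076-base Tagap transcript, 741 coding bases into it, and at base 138 of the 2312-base Tagap1 transcript. From there to the 3′ ends, 2146 of 2176 aligned positions were identical (98.6%). The promoters were unlike each other, with a best local alignment of 21 bases. The coding stretch printed here is a 120-base ungapped stretch that is coding in both copies, with the differing bases in capitals. They are A61C and G120A from Tagap to Tagap1, counted from the first base shown, and the stretch lies at chr17:7932959-7933078 for Tagap and chr17:6956829-6956948 for Tagap1.
Tagap: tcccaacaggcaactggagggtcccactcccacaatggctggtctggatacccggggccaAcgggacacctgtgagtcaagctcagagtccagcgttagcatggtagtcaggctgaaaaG
Tagap1: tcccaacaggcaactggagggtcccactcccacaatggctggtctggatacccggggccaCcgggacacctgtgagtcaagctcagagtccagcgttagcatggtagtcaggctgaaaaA

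The Dynlt1 copies lie at chr17:6306340-6317500 (Dynlt1a, minus strand), chr17:6601671-6609774 (Dynlt1c, plus strand) and chr17:6646602-6655900 (Dynlt1f, minus strand). All 3 share the same 339 coding bases, of which the first 120 are shown for the family. The transcripts of Dynlt1c and Dynlt1f differed at 1 of 771 aligned positions, and those of Dynlt1a and Dynlt1c at 25 of 2550.
Dynlt1a, Dynlt1c and Dynlt1f: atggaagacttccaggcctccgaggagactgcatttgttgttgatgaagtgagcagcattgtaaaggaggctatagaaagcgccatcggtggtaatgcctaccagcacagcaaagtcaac

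Since the libraries were read at the 3′ ends, the last 500 transcript bases were compared in stretches of 90 bases. Of 411 such stretches, 191 of Rnaset2a (46.5%) occurred letter for letter in the Rnaset2b transcript and 201 of Rnaset2b (48.9%) in that of Rnaset2a. Of the same number, 110 of Tagap and 110 of Tagap1 (26.8% each) occurred in the other copy. For Dynlt1f, 321 (78.1%) occurred in Dynlt1c and 204 (49.6%) in Dynlt1a, and 296 of Dynlt1c (72.0%) occurred in Dynlt1a, while none of Dynlt1c or Dynlt1a occurred in the 771-base Dynlt1f transcript. A read from a shared stretch cannot be given to 1 copy, so single-copy counts of these 7 genes are uncertain and their sums are given beside them. Whether such reads were counted at all is not given in the sources used here, so the sums can miss them as well.

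In microglia-like cells, Rnaset2b had 74 UMIs (11.7 CPM) in the deficient library, against 3627 and 3771 UMIs (261 and 241 CPM) in the WT libraries. Its copy Rnaset2a had 3233 UMIs (510 CPM) in the deficient library, against 4170 and 4568 UMIs (300 and 292 CPM) in WT. The deficient library thus stood below both WT libraries for 1 copy and above both for the other, and the log2 ratio of the deficient level to the WT mean was -4.43 for Rnaset2b and 0.78 for Rnaset2a. The WT means were 251 ± 14.1 CPM and 296 ± 5.74 CPM (SD, n = 2).

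The summed copies differed far less. Rnaset2a + Rnaset2b had 522 CPM (504 to 540) in the deficient library, against 562 CPM (549 to 574) in WT 1 and 533 CPM (522 to 545) in WT 2. The sum was thus the lowest of the 3, with an interval that overlapped that of WT 2 and not that of WT 1, and its log2 ratio was -0.068. Over all retained cells the deficient sum, 510 CPM, lay above both WT sums, 509 and 502 CPM, so the direction of this small difference depended on which cells were summed. Rnaset2a held 97.8% of the pair's UMIs (97.2 to 98.2) in the deficient library, against 53.5% (52.4 to 54.6) in WT 1 and 54.8% (53.7 to 55.9) in WT 2.

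The Tagap pair was divided the other way round. Tagap had 121 UMIs (19.1 CPM) in the deficient library, against 1998 and 1524 UMIs (144 and 97.5 CPM) in WT. Tagap1 had 717 UMIs (113 CPM) in the deficient library, against 115 and 130 UMIs (8.28 and 8.32 CPM) in WT. The deficient library lay outside the WT range for both copies, below it for Tagap (log2 ratio -2.66) and above it for Tagap1 (3.77).

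Tagap + Tagap1 had 132 CPM (124 to 142) in the deficient library, against 152 CPM (146 to 159) in WT 1 and 106 CPM (101 to 111) in WT 2. The deficient sum lay between the WT sums, and its log2 ratio to their mean was 0.037, while the WT libraries themselves differed beyond counting error. Tagap held 14.4% of the pair's UMIs (12.1 to 17.003) in the deficient library, against 94.6% (93.5 to 95.5) in WT 1 and 92.1% (90.7 to 93.4) in WT 2. Over all microglia-like cells, both pairs thus showed a large difference in which copy was counted. The sum of each pair differed little from the WT mean. Within 3 of 6 microglial clusters, described below, the deficient Tagap sum lay above both WT sums.

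**Figure D1:**
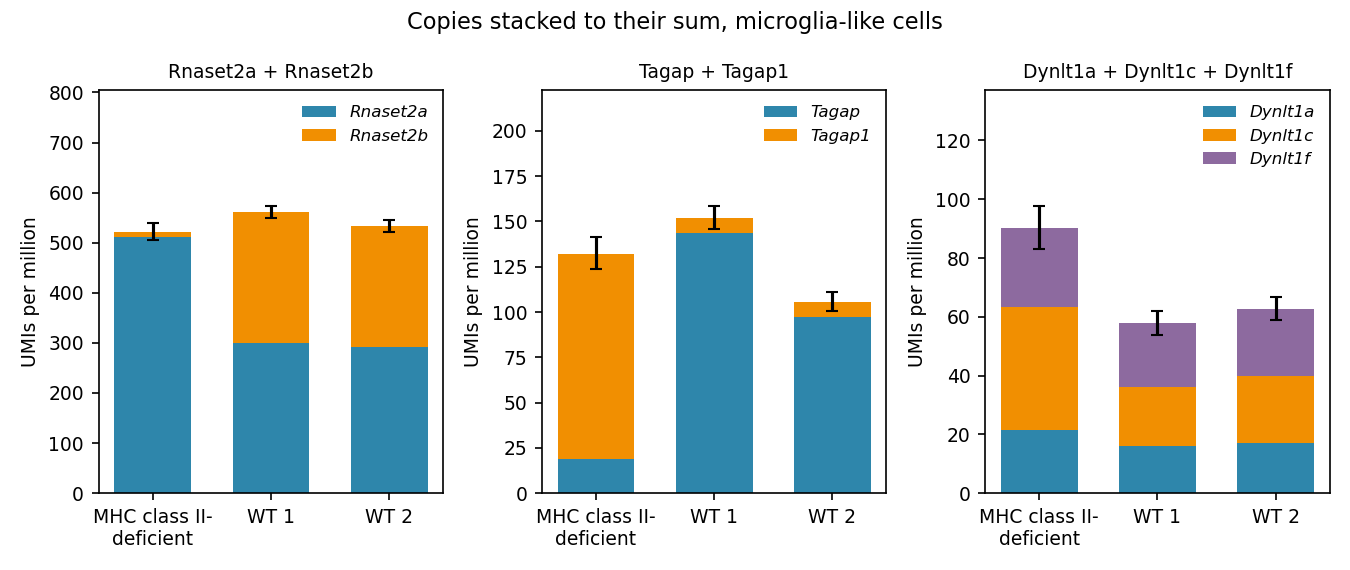
CPM of each copy (y axis, linear from 0), stacked to the sum of its family, in microglia-like cells of the MHC class II-deficient, WT 1 and WT 2 libraries, with exact 95% Poisson intervals of the sum. The Rnaset2 bars reach 522, 562 and 533 and the Tagap bars 132, 152 and 106, while the colours within each bar differ between the deficient and the WT libraries.

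The Dynlt1 copies were higher in the deficient library without such an exchange. Dynlt1c had 266 UMIs (42.0 CPM) there, against 281 and 358 UMIs (20.2 and 22.9 CPM) in WT. Dynlt1a had 136 UMIs (21.5 CPM), against 222 and 267 UMIs (15.99 and 17.1 CPM) in WT. Dynlt1f had 169 UMIs (26.7 CPM), against 299 and 357 UMIs (21.5 and 22.8 CPM) in WT. The deficient level of each copy lay above both WT levels, and the interval stood apart from both WT intervals for Dynlt1c only. A further copy, Dynlt1b, was not listed in the deficient table and had 7 and 5 UMIs in WT microglia-like cells.

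Dynlt1a + Dynlt1c + Dynlt1f had 90.2 CPM (82.9 to 97.9) in the deficient library, against 57.8 CPM (53.8 to 61.9) and 62.8 CPM (58.9 to 66.9) in WT, a log2 ratio of 0.58. Dynlt1c held 46.6% of the family's UMIs (42.4 to 50.8) in the deficient library, against 35.04% (31.7 to 38.5) and 36.5% (33.4 to 39.6) in WT. Dynlt1f held 29.6% (25.9 to 33.5) in the deficient library, against 37.3% (33.9 to 40.7) and 36.4% (33.3 to 39.5) in WT.

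The 3 genes without a near-identical copy on the list were lower in the deficient library. Zdhhc14, a palmitoyltransferase that adds lipid anchors to proteins (chr17:5492557-5753811, plus strand), had 40 UMIs (6.32 CPM) in deficient microglia-like cells, against 343 and 383 UMIs (24.7 and 24.5 CPM) in WT. Mpc1, a subunit of the carrier that takes pyruvate into mitochondria (chr17:8282904-8297661, plus strand), had 1037 UMIs (164 CPM), against 3634 and 4380 UMIs (262 and 280 CPM) in WT. Sft2d1, whose yeast relative acts in traffic to the Golgi (chr17:8311102-8327442, plus strand), had 2658 UMIs (420 CPM), against 7770 and 8544 UMIs (560 and 547 CPM) in WT. Each deficient level lay below both WT levels with intervals apart, and the log2 ratios were -1.96 for Zdhhc14, -0.73 for Mpc1 and -0.40 for Sft2d1.

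**Figure D2:**
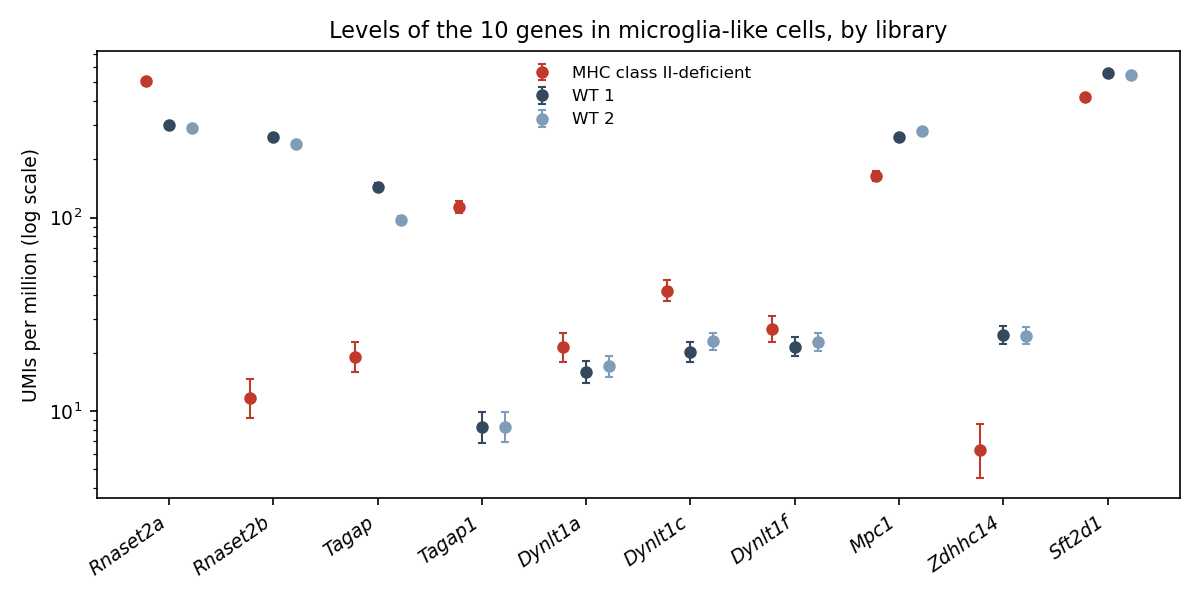
CPM (y axis, log scale) of the 10 genes in microglia-like cells of the MHC class II-deficient library (red) and the WT 1 and WT 2 libraries (dark and light blue), with exact 95% Poisson intervals. For each gene the deficient point lies outside the range of the WT points, above it for 5 genes and below it for 5.

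Across the whole table, 866 of 11852 tested genes were called in microglia-like cells (7.31%; the quasi-likelihood test of edgeR, p under 0.05 after Benjamini-Hochberg adjustment), 154 higher (1.30%) and 712 lower (6.01%) in the deficient library. Of the 10 listed genes, 8 were among them, 3 higher (Rnaset2a, Tagap1 and Dynlt1c) and 5 lower (Rnaset2b, Tagap, Mpc1, Zdhhc14 and Sft2d1), and nothing is read from that count because the list was chosen with this contrast known. The remaining genes, Dynlt1a and Dynlt1f, had the smallest log2 ratios of the 10, 0.38 and 0.27.

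The division of the copies differed between the libraries within each microglial cluster. Microglia-like cells were grouped into 6 clusters, with the listed genes left out of the genes used for grouping. Cluster 2 held 1627 of the deficient cells and 67 and 165 WT cells, so that it was mostly 1 library, and cluster 0 held 97 deficient cells and 1493 and 2375 WT cells. In cluster 2 the Rnaset2a share was 97.6% (97.0 to 98.2) in deficient cells, against 42.7% (33.3 to 52.5) in WT 1 cells and 55.5% (49.2 to 61.7) in WT 2 cells. In cluster 0 it was 98.1% (94.7 to 99.6) in deficient cells, against 54.0% and 53.3% in WT cells. Over the 6 clusters the share ran from 94.0% to 100% in deficient cells, against 42.7% to 58.7% in WT cells, with no overlap.

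The Tagap share was likewise apart in every cluster with at least 10 UMIs of the pair. It ran from 7.76% to 19.1% in deficient cells, against 86.4% to 97.9% in WT cells. In cluster 4, led by the immediate early genes Fosb, Atf3, Egr1 and Klf4, the sum of the pair was highest in each library: 335 CPM (277 to 402) in the 89 deficient cells, against 376 CPM (352 to 402) and 288 CPM (264 to 313) in the 478 and 360 WT cells. Tagap1 had 107 UMIs and Tagap 9 UMIs in deficient cells of that cluster, set against 26 UMIs of Tagap1 and 845 of Tagap in WT 1 and 11 and 521 in WT 2. The level of the pair was thus highest in the cluster with high immediate early genes in all 3 libraries, carried by Tagap1 counts in deficient cells and by Tagap counts in WT cells.

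In clusters 0, 1 and 2 the Tagap sum was higher in deficient cells than in WT cells. It was 130 CPM (90.5 to 181) in deficient cells of cluster 0, against 74.4 and 70.4 CPM in WT cells (log2 ratio 0.84). In cluster 1 it was 211 CPM (179 to 246) in deficient cells, against 156 and 120 CPM in WT cells (0.61), and in cluster 2 it was 109 CPM (99.4 to 119) in deficient cells, against 50.5 and 56.6 CPM in WT cells (1.02). The deficient sum was thus above both WT sums in 3 of 6 clusters. It was below both in 2, clusters 3 and 5, with log2 ratios of -0.24 and -0.32 on 9 and 23 deficient UMIs. In clusters 3 and 5 the intervals of the deficient sum, 31.3 to 130 CPM and 51.3 to 122 CPM, held both WT sums.

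The Rnaset2 sum was lowest in cluster 4 in each library, at 289 CPM (235 to 351) in deficient cells, against 331 CPM (307 to 355) and 279 CPM (255 to 304) in WT cells. The deficient Rnaset2 sum was below both WT sums in 4 of 6 clusters and above both in 0, with log2 ratios between -0.35 and -0.0029. Of the single genes, Rnaset2a and Tagap1 were above both WT libraries in 6 of 6, and Rnaset2b, Tagap, Mpc1, Zdhhc14 and Sft2d1 below both in 6 of 6. The fewest deficient UMIs behind one of these values was 0, for Rnaset2b in cluster 3, where 66 UMIs of Rnaset2a were counted in 45 cells. Zdhhc14 rested on 1 to 30 deficient UMIs per cluster and Tagap on 2 to 71, so some of these directions rest on very few counts. In cluster 2 Zdhhc14 had 6.62 CPM in deficient cells, against 7.21 CPM (1 UMI) in WT 1 cells and 23.6 CPM in WT 2 cells.

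**Figure D3:**
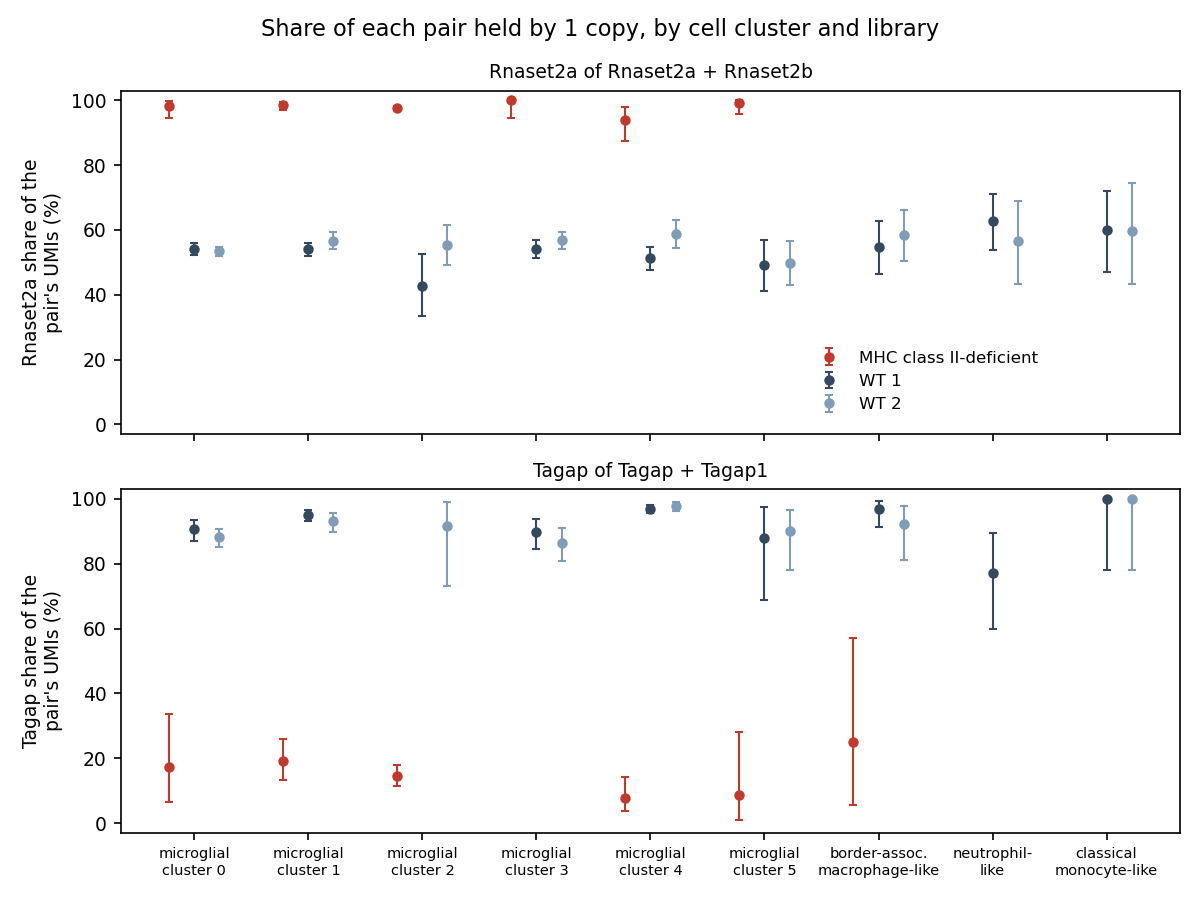
Share of the pair's UMIs held by Rnaset2a (top) and by Tagap (bottom), in percent, in the 6 microglial clusters and 3 other cell classes, for the MHC class II-deficient (red), WT 1 (dark blue) and WT 2 (light blue) libraries, with exact Clopper-Pearson 95% intervals; points with under 10 UMIs of the pair are left out. In microglial clusters, deficient Rnaset2a shares lie at 94.0% or above and WT shares at 58.7% or below, and deficient Tagap shares lie at 19.1% or below and WT shares at 86.4% or above.

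The Dynlt1 shares behaved otherwise. In cluster 2 Dynlt1c held 47.3% of the family's UMIs (42.6 to 52.0) in deficient cells, against 52.9% (27.8 to 77.0) of 17 UMIs in WT 1 cells and 51.5% (33.5 to 69.2) of 33 UMIs in WT 2 cells, so the intervals overlapped. The summed level in that cluster, 100.4 CPM (91.4 to 110.03) in deficient cells, lay between 123 CPM (71.4 to 196) in WT 1 cells and 77.8 CPM (53.6 to 109) in WT 2 cells. In cluster 4 Dynlt1f held the largest share in each library, at 60.0% (32.3 to 83.7) in deficient cells, against 54.5% (44.2 to 64.6) and 52.7% (40.7 to 64.4) in WT cells. The single copies had no common direction: Dynlt1a was above both WT libraries in 2 of 6 clusters and below both in 3, Dynlt1c above in 4 and below in 0, and Dynlt1f above in 4 and below in 2. Of the 6 clusters, the Dynlt1 sum was above both WT libraries in 3 and below both in 1.

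Single cells could hold UMIs of both copies. How often they did depends on the copy shares given above, so this is no separate result. Among microglia-like cells with exactly 2 UMIs of the Rnaset2 pair, 20 of 493 deficient cells (4.06%, 2.50 to 6.20) held 1 UMI of each copy, against 478 of 921 cells (51.9%, 48.6 to 55.2) in WT 1 and 513 of 1028 cells (49.9%, 46.8 to 53.0) in WT 2. For the Tagap pair, 37 of 101 such deficient cells (36.6%, 27.3 to 46.8) held 1 UMI of each, against 21 of 216 (9.72%, 6.12 to 14.5) and 29 of 172 (16.9%, 11.6 to 23.3) in WT. Cells with the same number of UMIs of a pair were compared, since the deficient cells were shallower by median UMIs.

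Other cell classes were few in the deficient library, with 16 border-associated macrophage-like, 19 neutrophil-like, 4 classical monocyte-like and 14 non-classical monocyte-like cells. Deficient border-associated macrophage-like cells had 3 UMIs of Tagap and 9 of Tagap1, set against 95 of Tagap and 3 of Tagap1 in WT 1 and 47 and 4 in WT 2. The Tagap share there was 25.0% (5.49 to 57.2) in deficient cells, against 96.9% (91.3 to 99.4) and 92.2% (81.1 to 97.8) in WT cells, which is the order seen in microglia-like cells. Rnaset2a had 5 UMIs and Rnaset2b 1 in these deficient cells, against 82 and 68 in WT 1 and 93 and 66 in WT 2. The Rnaset2 sum in them was 95.4 CPM (35.01 to 208), against 328 CPM (277 to 384) and 326 CPM (277 to 380) in WT, a lower value than in WT that rests on 6 UMIs. Deficient neutrophil-like cells had 3 UMIs of Rnaset2a and 0 of Rnaset2b, against 81 and 48 in WT 1 and 35 and 27 in WT 2.

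Within the WT libraries, the Rnaset2 sum had its highest value in microglia-like cells, at 562 and 533 CPM. It was 328 and 326 CPM in border-associated macrophage-like cells, 182 and 168 CPM in classical monocyte-like cells and 115 and 109 CPM in neutrophil-like cells. The 10 and 12 WT non-classical monocyte-like cells had 334 CPM (187 to 552) and 142 CPM (56.9 to 292), too wide to place in this order. Within each library the intervals of microglia-like, border-associated macrophage-like and classical monocyte-like cells stood apart from one another, and in WT 2 that of classical monocyte-like cells (121 to 226) overlapped that of neutrophil-like cells (83.8 to 140.04). The Rnaset2a share was between 53.5% and 62.8% in these 4 ordered classes. The Tagap sum was 214 and 104 CPM in border-associated macrophage-like cells and 152 and 106 CPM in microglia-like cells. It was 42.0 and 59.8 CPM in classical monocyte-like cells and 31.3 and 10.6 CPM in neutrophil-like cells. In WT 2 the interval of border-associated macrophage-like cells (77.8 to 137) overlapped those of microglia-like (101 to 111) and classical monocyte-like cells (33.5 to 98.7). In WT 1 those of classical monocyte-like (23.5 to 69.4) and neutrophil-like cells (21.8 to 43.5) overlapped.

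Dynlt1f stood out among the Dynlt1 copies in neutrophil-like cells. It held 77.7% (68.8 to 85.0) and 70.6% (56.2 to 82.5) of the family's UMIs there in WT 1 and WT 2, against 37.3% and 36.4% in microglia-like cells, and 5 of 7 UMIs in deficient neutrophil-like cells. Its level over all retained cells was 27.2 CPM in the deficient library, against 27.6 and 25.8 CPM in WT, so with all retained cells the deficient level lay between the WT levels. Neutrophil-like cells made up 0.852% of deficient cells, against 6.47% and 2.87% of WT cells. Zdhhc14 had 0 UMIs in deficient neutrophil-like cells and 2 and 0 UMIs in WT neutrophil-like cells, against 24.7 and 24.5 CPM in WT microglia-like cells.

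The genes with the levels most like those of each copy were sought over 9 class-by-library sums with at least 20 cells, of which 1 was deficient (Pearson correlation of log2(CPM + 1), given as a description, since the sums share libraries and depth). For Rnaset2a these were Itm2b (r = 0.98), Tbc1d14 (0.98) and Laptm5 (0.98), and for Rnaset2b Kcnk12 (0.97), Rab35 (0.95) and Cebpa (0.94). Kcnk12, a potassium channel subunit, had 2.21 CPM in deficient microglia-like cells, against 65.4 and 64.6 CPM in WT, and Itm2b, a membrane protein, had 6729 CPM, against 5883 and 6369 CPM in WT. For Tagap they were Btg2 (0.97), Ubn1 (0.96) and Maz (0.95), and for Tagap1 Scaper (0.89) and Ppp1r11 (0.89). The copies were chosen by the deficient sum against WT, so genes that differ there in the same direction can rank high for that alone. In WT border-associated macrophage-like, neutrophil-like and classical monocyte-like cells the Tagap1 sums rested on 0 to 8 UMIs.

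Other genes of the region were counted without the listed genes, which had been chosen by this contrast. With the listed genes, 10 of 30 tested genes (33.3%) at 5 to 10 Mb were called, so the count without them does not describe the whole region. Of 20 tested genes at 5 to 10 Mb that are not on the list, 1 was higher and 1 lower in the deficient library (edgeR), which is 10% of them against 7.31% of all genes. The higher one was Ccr6, 0.0879 Mb from Rnaset2a, with 149.5 CPM in deficient microglia-like cells, against 1.73 and 1.66 CPM in WT. The lower one was E430024P14Rik, annotated antisense to Tagap, with 2.68 CPM, against 6.48 and 7.23 CPM in WT (log2 fold change -1.35, edgeR adjusted p = 0.0231), which neither DESeq2 nor limma voom called. Whether its UMIs come from its own strand was not tested, because no source used here gives the strand setting of the counting.

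Apart from Ccr6, no neighbour with at least 20 CPM was called. Tulp4 had 66.9 CPM in deficient cells, against 70.4 and 75.7 CPM in WT, and Gtf2h5, a subunit of a transcription and repair factor, had 52.7 CPM, against 49.6 and 50.02 CPM. Snx9, an endocytic sorting nexin, had 35.2 CPM, against 41.4 and 39.5 CPM. Fgfr1op, a centrosomal protein, had 41.1 CPM, against 36.8 and 31.3 CPM, and Tmem242 had 23.2 CPM, against 19.8 and 20.1 CPM. None of these 5 was called, and the median log2 fold change of the 20 neighbours was -0.085, against -0.00023 over all genes. In 5 Mb windows of chromosome 17 with at least 20 tested genes, 2 of 20 genes (10%) were called at 5 to 10 Mb without the listed genes, and the other such windows ranged between 0 of 72 at 20 to 25 Mb and 4 of 22 (18.2%) at 15 to 20 Mb.

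**Figure D4:**
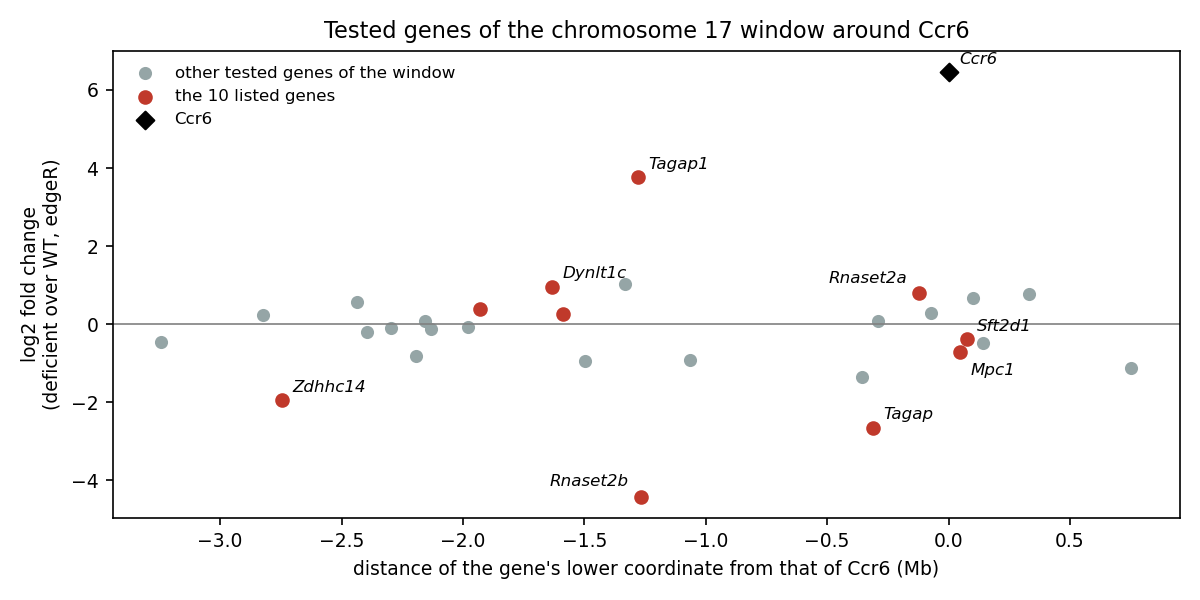
The edgeR log2 fold change of the MHC class II-deficient over the WT libraries (y axis) for each tested gene of the window, by the distance of its lower coordinate from that of Ccr6 in Mb (x axis). The listed genes (red) run from -4.43 for Rnaset2b to 3.77 for Tagap1, Ccr6 (black) lies at 6.46, and the 19 other genes (grey) lie between -1.35 and 1.03.

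Genes of the families and pathways of the listed genes were counted in the edgeR fit. In that fit 7.31% of all genes were called and 2249 of 11852 had an unadjusted edgeR p under 0.05. In lists of 15 to 20 genes, 0 calls lie near that background and are no result about the list. Of 20 tested dynein and dynactin genes, 0 were called at an adjusted p under 0.05 by edgeR, DESeq2 or limma voom, and 0 had an unadjusted edgeR p under 0.05, with a median log2 fold change of -0.0085. Dynll1, another dynein light chain, had 238 CPM in deficient cells, against 257 and 294 CPM in WT. Of 15 tested genes of mitochondrial pyruvate entry and use, 0 were called by any of the 3 tools and 0 had an unadjusted edgeR p under 0.05. Mpc2, the partner of Mpc1 in the pyruvate carrier, had 100.3 CPM in deficient cells, against 84.8 and 95.6 CPM in WT.

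Of 16 tested ribonucleases and genes of lysosomal nucleic acid breakdown, 0 were called by edgeR, DESeq2 or limma voom and 2 had an unadjusted edgeR p under 0.05. Rnase4, a secreted ribonuclease, had 888 CPM in deficient cells, against 808 and 875 CPM in WT. Of 16 tested genes in a list of palmitoyltransferases and Golga7, 0 were called by any of the 3 tools and 3 had an unadjusted edgeR p under 0.05. Of 12 tested genes of the SFT2 family and Golgi transport, 2 were called by edgeR (16.7%, against 7.31% of all genes), 1 by DESeq2 and 2 by limma voom. Vti1b was higher at 65.1 CPM, against 48.1 and 49.4 CPM in WT (log2 fold change 0.42, edgeR adjusted p = 0.0194), and Sft2d3, a relative of Sft2d1, was lower at 2.84 CPM, against 14.4 and 17.3 CPM in WT (log2 fold change -2.47, edgeR adjusted p = 0.000146).

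Copy shares of other near-identical genes are given here beside those of the listed copies. The listed copies were chosen by this contrast, so the order of the differences is no result. Of 51 other pairs on 1 chromosome within 1 Mb, with at least 95% identical coding bases over at least 80% of both lengths and at least 100 UMIs in each library, 6 had a share that differed between the deficient library and the WT mean by at least 10 percentage points and 0 by at least 40 points, with a median of 2.84 points and a largest difference of 17.6 points. Some of these pairs share a gene. The shares of the listed copies differed by 43.6 points for Rnaset2a, -78.9 points for Tagap and 10.8 points for Dynlt1c. The Dynlt1c value is its share of Dynlt1a + Dynlt1c + Dynlt1f and not of a pair. The Rnaset2 copies lie farther apart than 1 Mb and the Tagap copies differ in length, so neither pair would have met these limits.

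**Figure D5:**
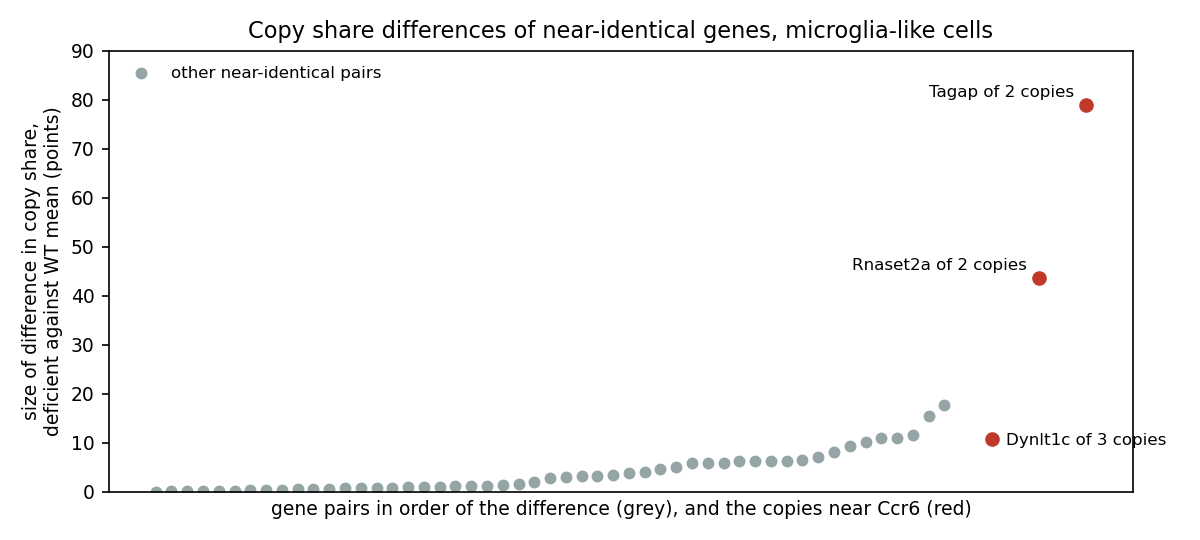
Size of the difference in copy share between the MHC class II-deficient library and the WT mean in microglia-like cells (y axis, percentage points), for 51 other near-identical gene pairs in order of size (grey) and for the copies near Ccr6 (red). The grey points end at 17.6 points, and the red points lie at 10.8 points for Dynlt1c, 43.6 points for Rnaset2a and 78.9 points for Tagap. The copies shown in red were chosen by this contrast.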

How the data were processed

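Each library came as 1 deposited table of UMI counts by gene and barcode, whole numbers that the authors had not normalized. Brain cells were sorted for CD11b and CD45 before the 10x 3′ v2 kit, per the labels' protocols. The submitters' processing notes list Cell Ranger 3.0, Seurat 2.2 and mm10. For the gene annotation, the assignment of reads between copies and the strand setting, no setting is given in the sources used here. The rarest gene listed in a table was seen in 4 cells in the deficient library and in 4 and 3 cells in WT.

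Kept barcodes had at least 500 UMIs, at least 200 genes and a mitochondrial share of 10% or less. Scrublet called 29 of 11264 cells (0.257%), 28 of them deficient, too few to have worked, so doublets can remain. Cells were clustered without the listed genes, Ccr6, Dynlt1b, MHC class II and sex-linked genes (scanpy 1.11.5, Leiden resolution 1, microglia again at 0.5) and named from marker lists. Levels are CPM of the summed cells. Summed microglia-like counts were fitted with edgeR 4.0.16 (TMM, 1 residual degree of freedom), deficient minus WT. DESeq2 1.42.0 and limma 3.58.1 voom were alternatives. The fit was tested on simulated data, in which 9.56% of its calls at an adjusted p under 0.05 were false. Of the gene symbols, 98.7% had 1 position in GENCODE M21. Other near-identical pairs were found by BLAST+ 2.17.0 of coding bases, since the planned protein table was not used here. Named were the 10 listed genes, Ccr6, tested neighbours that were called or had at least 20 CPM, the 3 genes most like each of 4 copies (1 of them and 1 gene list are not reported here), and, chosen after their values were seen, called genes and single examples of the lists. Members and lists were chosen with earlier results of these data known. The labels name separate mice; p-values rest on the spread of 2 WT libraries.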

Additional observations from a re-analysis of the deposited data

How the results depend on the processing

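Alternatives covered a strict cell filter, all retained cells, no doublet removal, sums thinned to the smallest library, TMM scaling and leaving out either WT library. None changed the sign of a log2 ratio of the 10 genes, and the largest move was 0.31 on the log2 scale, for Tagap, which stood at -2.91 without WT replicate 2 and -2.35 without WT replicate 1. The summed Tagap ratio (main 0.037) turned with the WT library used, at 0.32 without WT replicate 1 and -0.20 without WT replicate 2. Over all retained cells the summed Rnaset2 ratio changed sign to 0.014 (main -0.068), and the share differences moved to -2.08 points for Dynlt1a (main -3.62), 13.7 for Dynlt1c (main 10.8) and -11.6 for Dynlt1f (main -7.22), with 4 of the 10 genes above both WT libraries in place of 5. Thinned sums gave -4.64 points for Dynlt1a and -6.52 for Dynlt1f. DESeq2 called 474 genes in place of 866 (52 higher and 422 lower). Both DESeq2 and limma voom called 1 neighbour in place of 2. With at least 30 UMIs, 14 of 109 other pairs differed by 10 points or more, in place of 6 of 51. The causes were not tested. A count of calls without a WT library could not be made, because no residual degree of freedom is left. No paired analysis was possible because the groups share only replicate number 1. The other classes hold at most 19 deficient cells, which limits their values, and the share intervals do not cover the spread between mice.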
